A study of Mus musculus with 49 samples.

Results

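Transcripts of 9 citrate cycle genes were followed through the white fat of the mouse strains 129S1/SvImJ and C57BL/6. The 9 are Cs, Idh3a, Idh3b, Idh3g, Ogdh, Suclg1, Suclg2, Fh1 and Mdh2. They were taken by gene symbol, as the transcript row with the highest total per symbol, from all 5 deposited RNA-seq tables. Each of the 9 had 1 row, and together they are 9 of the 22869 gene symbols in the tables. The question of the study, as its title and design text put it, was how inherited differences between mouse strains shape fat tissue and the response to the antidiabetic drug rosiglitazone, a ligand of the nuclear receptor PPARγ.

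Of the 49 samples in the labels, 43 RNA-seq libraries from 10 groups were used. In the drug experiment, epididymal white adipose tissue (eWAT, the visceral fat pad beside the epididymis) came from 4 libraries of each strain on each of 2 diets. All of these mice ate a control low fat diet for 10 weeks, at ages 6 to 16 weeks. For the last 2 weeks, until 18 weeks of age, the treated mice ate the diet with 36 mg rosiglitazone per kg of diet, and the control mice stayed on the control diet. Low fat diet libraries labelled 12w came from separately numbered experiments for eWAT and for inguinal white adipose tissue (iWAT, a subcutaneous pad). There were 4 iWAT libraries of each strain. Of 12w eWAT there were 4 libraries of 129S1/SvImJ and 5 of C57BL/6. A chow experiment had 5 eWAT libraries of each strain. The labels give no engineered allele, no sex, and no age for the chow and 12w mice. Nothing in them says that libraries came from separate animals, so the p-values measure the spread between libraries, which may in part be technical. Not analysed here were 5 chow libraries from F1 mice and a single GRO-seq sample, which measures nascent RNA.

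The citrate cycle is the ring of mitochondrial reactions that oxidizes acetyl groups from carbohydrate, fat and amino acids and hands the electrons to the respiratory chain. Citrate synthase (Cs) joins acetyl-CoA to oxaloacetate. Isocitrate dehydrogenase 3, built of the catalytic subunit Idh3a and the subunits Idh3b and Idh3g, makes 2-oxoglutarate, and Ogdh is the first component of the complex that turns it into succinyl-CoA. Suclg1 is the alpha subunit of succinyl-CoA ligase and pairs with either Suclg2, in the GTP-forming enzyme, or Sucla2, in the ATP-forming one. Fh1 (fumarase) and Mdh2 (mitochondrial malate dehydrogenase) close the ring. In white adipocytes the cycle also supplies citrate, which is exported as the carbon source of fatty acid synthesis, and brown and beige adipocytes hold many more mitochondria than white ones.

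The promoters of 5 members are shown. Suclg1 had the largest strain difference, and Cs is the member it was set against. Idh3g, Ogdh and Mdh2 are shown because they held the motif matches, and they rose with rosiglitazone in 129S1/SvImJ. Cs, Suclg1 and Idh3b also rose there and held no match, and Idh3b, which is not shown, rose the most of the 9. RefSeq promoter entries on build GRCm38.p6 were matched by symbol for 8 of the 9 members (all but Idh3a). The sequences run 5′ to 3′ on the gene's strand and hold the 250 bases before the annotated start. They come from the reference strain C57BL/6J, so they show no difference between the strains. Capitals mark matches to the motifs searched. For Ogdh, which has several starts, the first window is shown.
Suclg1 (chr6:73248255-73248504, plus strand): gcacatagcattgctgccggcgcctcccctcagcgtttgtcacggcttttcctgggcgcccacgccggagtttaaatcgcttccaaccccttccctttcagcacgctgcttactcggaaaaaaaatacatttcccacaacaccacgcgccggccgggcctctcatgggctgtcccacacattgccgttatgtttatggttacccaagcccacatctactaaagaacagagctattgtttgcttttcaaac
Cs (chr10:128337477-128337726, plus strand): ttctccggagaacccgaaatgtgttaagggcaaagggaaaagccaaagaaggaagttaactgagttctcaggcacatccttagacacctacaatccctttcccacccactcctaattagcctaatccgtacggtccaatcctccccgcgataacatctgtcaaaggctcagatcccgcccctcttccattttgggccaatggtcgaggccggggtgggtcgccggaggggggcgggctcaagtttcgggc
Idh3g (chrX:73786898-73787147, minus strand): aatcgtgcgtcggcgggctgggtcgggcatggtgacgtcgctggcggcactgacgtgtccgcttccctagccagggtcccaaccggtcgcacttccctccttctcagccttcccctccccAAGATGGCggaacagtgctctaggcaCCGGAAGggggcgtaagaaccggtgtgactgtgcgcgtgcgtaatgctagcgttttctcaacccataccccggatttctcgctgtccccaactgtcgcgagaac
Ogdh (chr11:6291347-6291596, plus strand): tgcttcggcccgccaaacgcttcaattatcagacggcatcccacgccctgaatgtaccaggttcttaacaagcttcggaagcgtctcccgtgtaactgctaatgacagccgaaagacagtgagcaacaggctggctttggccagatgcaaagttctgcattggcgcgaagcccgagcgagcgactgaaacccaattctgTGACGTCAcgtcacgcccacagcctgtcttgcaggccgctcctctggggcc
Mdh2 (chr5:135778399-135778648, plus strand): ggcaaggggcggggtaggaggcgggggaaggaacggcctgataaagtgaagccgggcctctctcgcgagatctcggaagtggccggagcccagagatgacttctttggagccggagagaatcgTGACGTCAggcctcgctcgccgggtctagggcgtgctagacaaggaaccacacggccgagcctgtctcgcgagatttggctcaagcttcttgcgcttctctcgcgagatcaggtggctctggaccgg

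The 6 motifs named next were searched on both strands of the 250 bases. TGACGTCA, the CREB-type site, was found in Mdh2 and Ogdh, and in 1.55% of 32851 RefSeq windows of the same length. Of the several Ogdh windows, the overlapping ones around the window shown held the same site and the others held none. CCGGAAG, the site of ETS factors such as GABPA, was in Idh3g and in 6.91% of all windows. AAGATGGC, the YY1 core, was also in Idh3g and in 1.56% of windows. No member window held the extended ESRRA site TCAAGGTCA (0.387% of windows), the NRF1 palindrome, GCGCA and GCGC with 1 base between them (3.74%), or a direct repeat of the kind PPARγ and RXR bind, AGGTCA and AGGTCA with 1 base between them (0.0335%). The ESRRA site and the direct repeat share the letters AGGTCA. A match describes letters in this window only, and the absence of one says nothing about binding by the factor.

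The deposited values are whole numbers normalized by the authors, with a floor of 1. Within a table every library has the same highest value, and over all tables the sums per library lie between 5537632 and 7526303. They are not read counts, so sequencing depth is unknown and no counting interval can be given. The sources used here do not give how reads shared with near-identical gene copies or overlapping genes were counted. Differences were tested with limma on log2(value + 1), with Benjamini-Hochberg adjustment over all 22869 symbols, and a gene was called at an adjusted p under 0.05. Adipocyte markers were high in all groups, but several libraries stood apart. In 129S1/SvImJ chow library 2, 10 epididymis markers summed to 231935, and in library 1 to 34017, against 109 to 133 in the other 3 libraries and 50 to 162 in C57BL/6. The sum of 9 adipocyte markers in that library 2 was 23571, against at least 122256 in the other 129S1/SvImJ chow libraries. C57BL/6 12w eWAT library 3 had a skeletal muscle marker sum of 13889, against 399 to 832 in the other 4. In iWAT, library 4 of each strain had high thermogenic adipocyte markers, with Ucp1, the uncoupling protein of brown and beige fat, at 2392 in 129S1/SvImJ and 2108 in C57BL/6, against at most 156 in the other 6 iWAT libraries. Lymphocyte marker sums ran from 40 to 3570 in 129S1/SvImJ iWAT and from 7 to 1712 in C57BL/6 iWAT. In 12w eWAT they were 39 to 78 and 64 to 139. Skeletal muscle sums were 238 to 2991 in 129S1/SvImJ iWAT and 581 to 2104 in C57BL/6 iWAT. The 4 C57BL/6 iWAT libraries were also coarser, with 467 to 679 distinct values and 32.1% to 37.7% of genes at the floor, against 1293 to 1865 distinct values and 15.2% to 27.2% in the other 39 libraries.

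Levels can be set between genes only per length of transcript. Among 337 pairs of transcripts of 1 gene whose lengths differ at least 1.5-fold, the longer was 1.12 log2 units longer at the median while its value differed by 0.01 log2 units, so the values are not divided by length. Divided by transcript length in kilobases, taken from the matching GENCODE transcript, the members on the control diet in 129S1/SvImJ eWAT spanned a mean of 729 per kb for Cs down to 35.5 per kb for Suclg2. In C57BL/6 the same ends were 545 and 25.8 per kb. Mdh2 had 586 per kb in 129S1/SvImJ and 447 per kb in C57BL/6. Suclg1 had 412 per kb in 129S1/SvImJ and 184 per kb in C57BL/6, so the alpha subunit stood well above Suclg2, the GTP-specific partner, in both strains. The transcript lengths are those of GRCm38 models, while the submitters' processing notes name mm9, and the row for Cs carries a 0 in the authors' "Best" column, whose meaning is not given.

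Rosiglitazone raised citrate cycle transcripts in the eWAT of both strains. In 129S1/SvImJ 7 of the 9 members rose and none fell, where 2.96% of all genes were called higher and 2.56% lower. In C57BL/6 3 of 9 rose and none fell, where 1.53% of all genes were called higher and 0.901% lower. All 9 fitted differences were positive in each strain, with a median log2 fold change of 0.55 in 129S1/SvImJ and 0.40 in C57BL/6, while the median over all genes was 0.00 in both. All 4 treated libraries lay above all 4 controls for 7 members in 129S1/SvImJ (5.17% of all genes) and for 3 in C57BL/6 (3.5% of all genes), the genes that were called.

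At the entry of the cycle, Cs had values of 2601, 3382, 2702 and 3462 in 129S1/SvImJ on rosiglitazone, against 2158, 1838, 2539 and 1995 on the control diet. In C57BL/6 it had 2552, 2088, 2398 and 2483 on rosiglitazone, against 1394, 1436, 1603 and 1945 on the control diet. In each strain all 4 treated libraries lay above all 4 controls. The log2 fold change was 0.51 ± 0.12 (SE) in 129S1/SvImJ (adjusted p = 0.0144) and 0.59 ± 0.12 in C57BL/6 (adjusted p = 0.0107). The 129S1/SvImJ call ended in 4 of the 16 fits that each left out 1 library (control libraries 2 and 4 and rosiglitazone libraries 2 and 4, adjusted p 0.0589 to 0.0643).

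Of the subunits of isocitrate dehydrogenase 3, Idh3a was called in both strains, and Idh3b and Idh3g in 129S1/SvImJ. Idh3a, the catalytic subunit, had values of 1405, 1512, 1316 and 1536 in 129S1/SvImJ on rosiglitazone, against 934, 914, 1293 and 848 on the control diet. In C57BL/6 it had 1155, 1112, 1433 and 1460 on rosiglitazone, against 738, 694, 695 and 699 on the control diet. It rose in both strains without overlap, by 0.55 ± 0.12 on the log2 scale in 129S1/SvImJ (adjusted p = 0.0054) and by 0.86 ± 0.12 in C57BL/6 (adjusted p = 0.000212), the largest change of any member in that strain.

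Idh3b had values of 1174, 1506, 913 and 1176 in 129S1/SvImJ on rosiglitazone, against 696, 620, 743 and 648 on the control diet. In C57BL/6 it had 712, 561, 607 and 667 on rosiglitazone, against 447, 506, 428 and 664 on the control diet. The groups were apart in 129S1/SvImJ and overlapped in C57BL/6. The log2 fold change was 0.80 ± 0.14 in 129S1/SvImJ (adjusted p = 0.000989), the largest of the 9 there, and 0.33 ± 0.14 in C57BL/6 (adjusted p = 0.267). Idh3g, the other non-catalytic subunit, had log2 fold changes of 0.67 ± 0.13 in 129S1/SvImJ (adjusted p = 0.00188) and 0.41 ± 0.13 in C57BL/6 (adjusted p = 0.0917). In C57BL/6 Idh3g passed the threshold in 2 fits with 1 library left out (control library 4, adjusted p = 0.0295, and rosiglitazone library 2, adjusted p = 0.0263).

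Ogdh had values of 2695, 3219, 2729 and 2971 in 129S1/SvImJ on rosiglitazone, against 1918, 1723, 1792 and 1780 on the control diet. In C57BL/6 it had 2472, 1921, 2053 and 2174 on rosiglitazone, against 1857, 1705, 1637 and 1937 on the control diet. The 129S1/SvImJ groups were far apart, and the C57BL/6 groups overlapped by 1 treated library under the highest control. Its change in 129S1/SvImJ had the smallest adjusted p of the members (0.68 ± 0.09, adjusted p = 5.2e-05), against 0.27 ± 0.09 in C57BL/6 (adjusted p = 0.137).

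Of the later enzymes, Mdh2 rose in both strains. It had values of 1359, 1219, 1193 and 1455 in 129S1/SvImJ on rosiglitazone, against 1056, 701, 855 and 799 on the control diet, and 1117, 879, 907 and 1080 in C57BL/6 on rosiglitazone, against 572, 610, 651 and 770 on the control diet. No treated library overlapped a control in either strain, and the log2 fold changes were 0.63 ± 0.12 in 129S1/SvImJ (adjusted p = 0.00263) and 0.61 ± 0.12 in C57BL/6 (adjusted p = 0.0071). Suclg1 was called in 129S1/SvImJ (0.54 ± 0.15, adjusted p = 0.0324) but not in C57BL/6 (0.40 ± 0.15, adjusted p = 0.199). That 129S1/SvImJ call ended in 6 of 16 fits with 1 library left out (control libraries 2, 3 and 4 and rosiglitazone libraries 1, 2 and 4, adjusted p 0.055 to 0.114), and the C57BL/6 change was called without rosiglitazone library 2 (adjusted p = 0.0416). Fh1 (0.38 ± 0.15 in 129S1/SvImJ and 0.34 ± 0.15 in C57BL/6) and Suclg2 (0.25 ± 0.17 in 129S1/SvImJ and 0.07 ± 0.17 in C57BL/6) passed in neither strain, with adjusted p of at least 0.178.

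**Figure D1:**
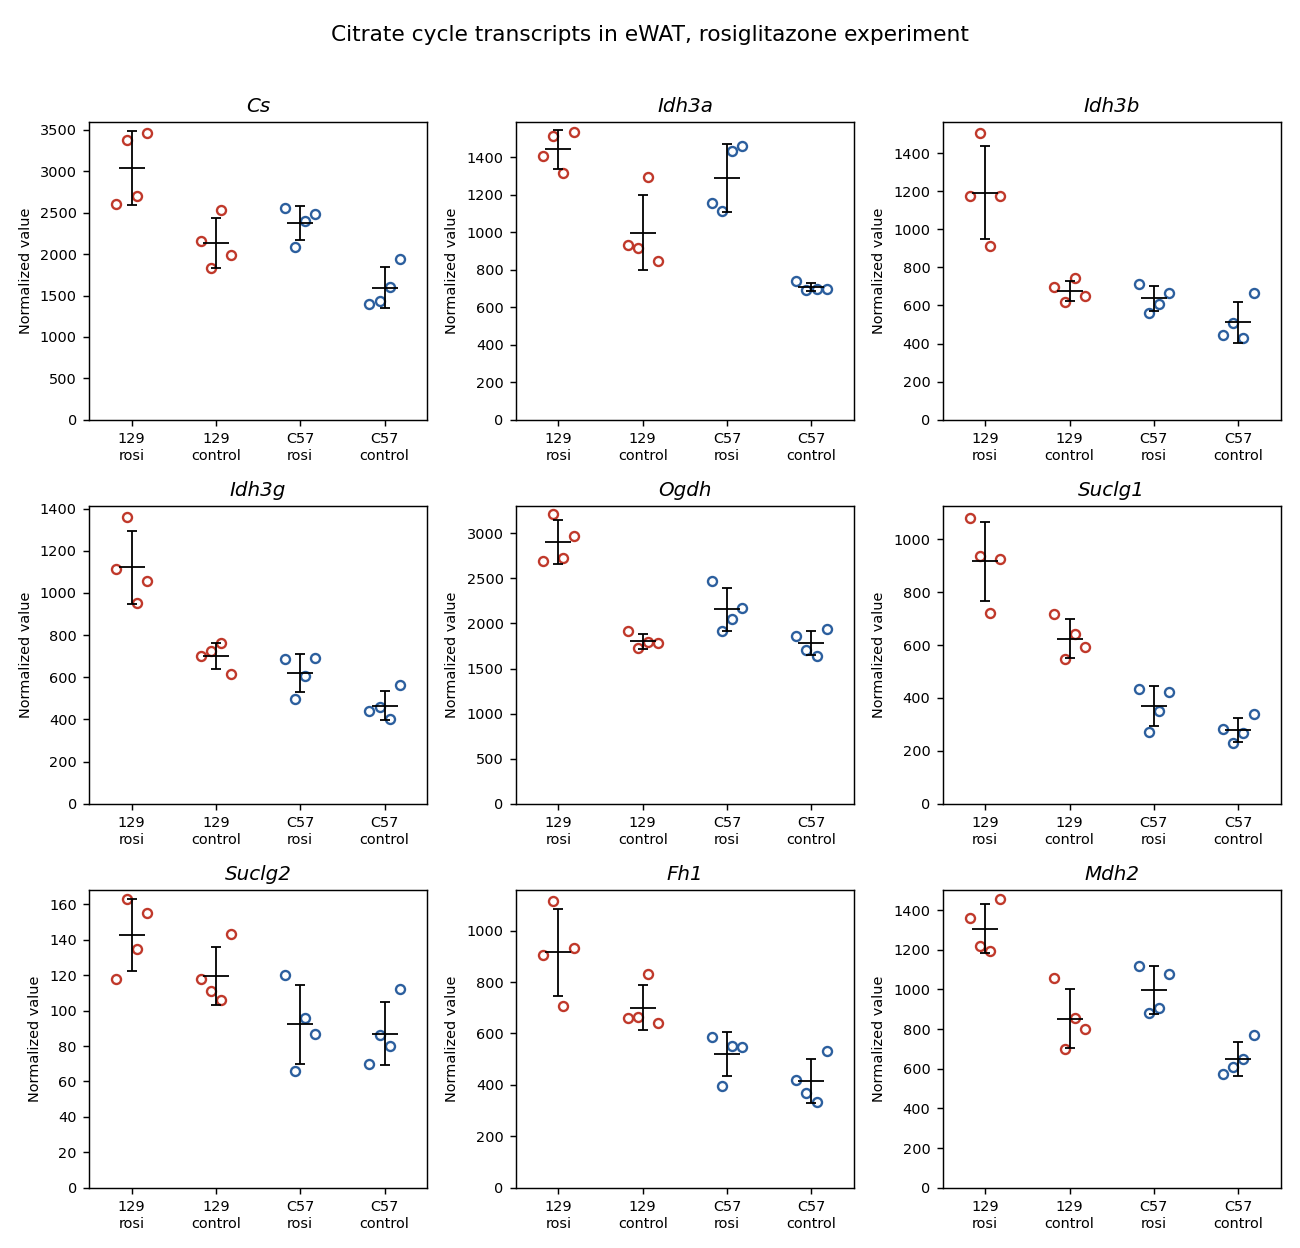
Normalized values of the 9 members in eWAT of the rosiglitazone experiment, with 1 panel per gene and the value axis starting at 0. Open circles are single libraries (4 per group, 129S1/SvImJ in red and C57BL/6 in blue), and black bars are the mean and SD; Suclg1 stands higher in 129S1/SvImJ on either diet, and Idh3a rises in both strains.

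The difference in drug response between the strains was tested as an interaction and was called for none of the 9 members, where 0.21% of all genes were called in either direction. At an unadjusted p under 0.05 there were 2 of 9 members. These were Ogdh, whose response was larger in 129S1/SvImJ by 0.41 ± 0.13 log2 units (adjusted p = 0.213), and Idh3b, larger by 0.46 ± 0.20 (adjusted p = 0.42). Idh3a pointed the other way, at -0.31 ± 0.16 (adjusted p = 0.57). The interval for Mdh2, with the interaction nearest to 0, ran from -0.35 to 0.37 log2 units, so responses that differ by up to about that much cannot be told from equal ones. The 7 calls in 129S1/SvImJ and 3 in C57BL/6 therefore do not show that the strains responded differently.

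Thermogenic markers moved with the members in 129S1/SvImJ. Their 7 genes summed to 1123 to 2196 on rosiglitazone, against 293 to 477 on the control diet, and 5 of 7 were called higher. In C57BL/6 the sums were 317 to 478 on rosiglitazone, against 242 to 289 on the control diet, and 2 of 7 were called higher. Ucp1 had 241, 481, 245 and 680 in treated 129S1/SvImJ eWAT, against 4, 14, 59 and 9 in its controls, while in C57BL/6 it was at most 5 on either diet. Macrophage marker sums were 1984 to 3216 on rosiglitazone against 3339 to 4845 on the control diet in 129S1/SvImJ, with none of 7 genes called. In C57BL/6 they were 1550 to 3734 against 2660 to 5581, also with none called. The part of these cells in the members' changes was not tested. In bulk tissue, a change in the number of cells of a type and a change in RNA per cell cannot be told apart.

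Between the strains, most members were called higher in 129S1/SvImJ than in C57BL/6 on either diet of the drug experiment. With the control diet, 7 of 9 were called higher and none lower, where 10.0% of all genes were called higher and 7.5% lower. On rosiglitazone 7 of 9 were again called higher and none lower, where 5.45% of all genes were called higher and 5.23% lower. The medians of the 9 log2 differences were 0.47 on the control diet and 0.65 on rosiglitazone, against 0.01 and 0.00 over all genes. Higher without overlap of the libraries on the control diet were 4 members (Idh3a, Idh3g, Suclg1 and Fh1), as were 9.91% of all genes, and on rosiglitazone 7 were (all but Idh3a and Suclg2), as were 6.88% of all genes. The strain and drug comparisons use the same 16 libraries and are not independent of each other.

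Suclg1 had the largest strain difference of the 9 on both diets. On rosiglitazone it had values of 1082, 937, 720 and 927 in 129S1/SvImJ, against 433, 272, 350 and 424 in C57BL/6. On the control diet it had 719, 548, 642 and 591 in 129S1/SvImJ, against 282, 229, 266 and 339 in C57BL/6. The lowest 129S1/SvImJ library of either diet lay above the highest C57BL/6 library of either diet. The log2 difference was 1.32 ± 0.15 on rosiglitazone (2.49-fold, adjusted p = 3.9e-06) and 1.17 ± 0.15 on the control diet (2.25-fold, adjusted p = 1.6e-05), and both calls held in all 16 fits with 1 library left out. Suclg2, its GTP-specific partner, was 0.65 ± 0.17 higher on rosiglitazone (adjusted p = 0.0166), with 118, 163, 135 and 155 in 129S1/SvImJ against 120, 66, 96 and 87 in C57BL/6. On the control diet Suclg2 differed by 0.47 ± 0.17 and missed the threshold (adjusted p = 0.065).

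Fh1, which hydrates fumarate to malate, came second on the control diet. It had 661, 665, 830 and 642 in 129S1/SvImJ, against 418, 370, 335 and 531 in C57BL/6, with no overlap. Its log2 difference was 0.77 ± 0.15 on the control diet (adjusted p = 0.0012) and 0.81 ± 0.15 on rosiglitazone (adjusted p = 0.0012). Idh3g was higher by 0.60 ± 0.13 on the control diet (adjusted p = 0.00212) and by 0.85 ± 0.13 on rosiglitazone (adjusted p = 0.000121).

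Of the other members, Idh3b and Mdh2 were called higher on both diets, and Ogdh, Idh3a and Cs on 1 of them. Idh3b was 0.89 ± 0.14 higher in 129S1/SvImJ on rosiglitazone (adjusted p = 0.00022), and on the control diet 0.42 ± 0.14 higher (adjusted p = 0.0393). Ogdh was 0.43 ± 0.09 higher on rosiglitazone (adjusted p = 0.00301), while on the control diet its values of 1918, 1723, 1792 and 1780 in 129S1/SvImJ fell among the 1857, 1705, 1637 and 1937 of C57BL/6 (0.02 ± 0.09, interval -0.17 to 0.21). Idh3a was the reverse case, called on the control diet (0.48 ± 0.12, adjusted p = 0.00634) but not on rosiglitazone (0.17 ± 0.12, adjusted p = 0.44). Cs and Mdh2 differed by 0.42 ± 0.12 and 0.38 ± 0.12 on the control diet (adjusted p = 0.0199 and 0.0331). On rosiglitazone Cs differed by 0.34 ± 0.12 (adjusted p = 0.0798) and Mdh2 by 0.39 ± 0.12 (adjusted p = 0.041). These contrasts between the diets are the interaction given above, which no member passed.

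Several of these smaller strain calls lay near the threshold and ended when 1 of several libraries was left out, while the log2 differences on the control diet stayed between 0.34 and 0.56 for Idh3b, 0.27 and 0.47 for Mdh2 and 0.33 and 0.52 for Cs. On the control diet, Idh3b lost its call in 7 of 16 fits with 1 library left out (129S1/SvImJ control libraries 1, 3 and 4, C57BL/6 control libraries 1, 2 and 3, and C57BL/6 rosiglitazone library 3, adjusted p 0.0505 to 0.132). Mdh2 lost its own in 6 (the same libraries other than the rosiglitazone one, adjusted p 0.051 to 0.137), and Cs in 3 (129S1/SvImJ control library 3 and C57BL/6 control libraries 1 and 2, adjusted p 0.0667 to 0.0835). On rosiglitazone, Mdh2 lost its call in 6 fits (129S1/SvImJ control library 4 and rosiglitazone libraries 1, 2 and 4, and C57BL/6 rosiglitazone libraries 2 and 3, adjusted p 0.0529 to 0.134), and Suclg2 in 3 (129S1/SvImJ rosiglitazone libraries 2 and 4 and C57BL/6 rosiglitazone library 2, adjusted p 0.0518 to 0.0761). Endothelial markers differed in the same comparison, with 6 of 6 called lower in 129S1/SvImJ on the control diet and sums of 2091 to 2659 in 129S1/SvImJ against 3421 to 5306 in C57BL/6. Of the thermogenic markers, 4 of 7 were called higher and 1 lower in 129S1/SvImJ on the control diet, and 5 of 7 higher on rosiglitazone. The part of these cell types in the strain differences was not tested.

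Ordered by mean over the 4 groups of the drug experiment, treated 129S1/SvImJ was highest for all 9 members and control C57BL/6 lowest. The groups between them changed places. For Suclg1, Fh1, Idh3b, Idh3g and Suclg2 the control 129S1/SvImJ group came second, and for Cs, Idh3a, Ogdh and Mdh2 the treated C57BL/6 group did. Those neighbouring middle groups overlapped in their libraries for Cs, Idh3a, Idh3b, Idh3g, Suclg2 and Mdh2. They did not overlap for Suclg1 (control 129S1/SvImJ 548 to 719, treated C57BL/6 272 to 433), Fh1 (642 to 830 and 395 to 588) and Ogdh (treated C57BL/6 1921 to 2472, control 129S1/SvImJ 1723 to 1918).

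**Figure D2:**
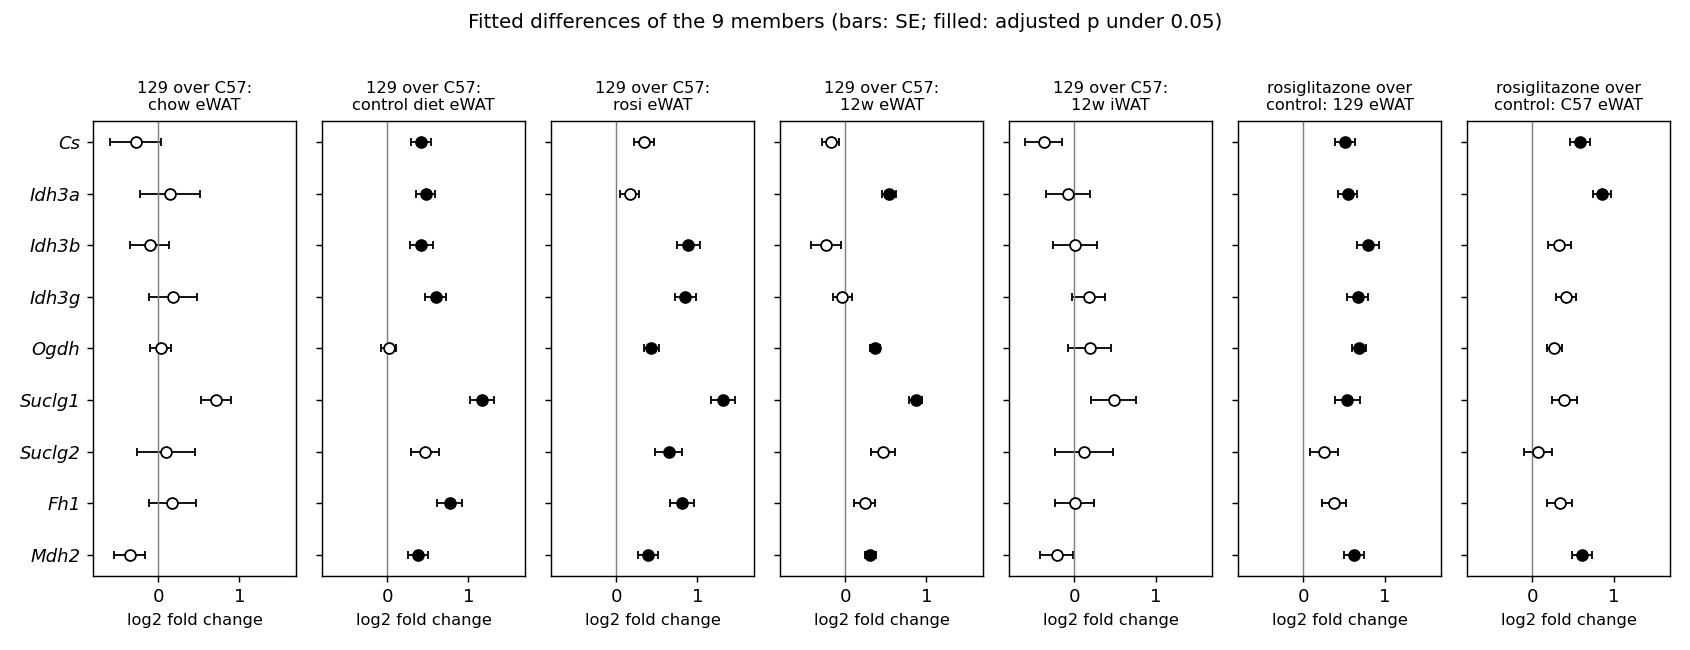
Fitted log2 fold changes of the 9 members in 7 comparisons, with 129S1/SvImJ over C57BL/6 in the first 5 panels and rosiglitazone over control in the last 2. Points are estimates, bars the SE, and filled points have an adjusted p under 0.05; Suclg1 lies to the right of 0 in all 5 strain panels and is filled in 3 of them.

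On chow, no member was called different between the strains, where 2.39% of all genes were called higher and 2.61% lower in 129S1/SvImJ, and 1 of 9 members had an unadjusted p under 0.05. That member was Suclg1, with values of 617, 404, 716, 880 and 601 in 129S1/SvImJ against 367, 435, 364, 358 and 381 in C57BL/6 (0.71 ± 0.19, adjusted p = 0.0698). Only library 2 of 129S1/SvImJ, at 404, fell within the C57BL/6 range. The authors' deposited table gives the same gene a log2 change of -0.86 for C57BL/6 over 129S1/SvImJ with a p-value of 0.00834, whose adjustment is not stated.

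That library 2, which had the highest epididymis and lowest adipocyte marker sums, was low for all 9 members, at a median of 0.361 times the median of the other 129S1/SvImJ chow libraries. Fh1 was 321 there, against 628 to 906 in the other 4, and Idh3a 328, against 895 to 1336. Library 1 was below the median of the other 4 for all 9 members, at a median of 0.728 times. Without library 2, Suclg1 alone of the 9 passed (0.87, adjusted p = 0.00546), and the share of all genes called in that fit is not given here. Without libraries 1 and 2, 4 members were called higher in 129S1/SvImJ: Suclg1 (0.93, adjusted p = 0.00975), Idh3a (0.63, adjusted p = 0.0136), Fh1 (0.57, adjusted p = 0.021) and Idh3g (0.60, adjusted p = 0.0238). In that fit 1535 genes of all were higher and 1062 lower, and Mdh2, at -0.12 (adjusted p = 0.479), remained below 0.

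On the low fat diet labelled 12w, eWAT of 129S1/SvImJ had higher levels of 4 of the 9 members and lower levels of none, where 11.6% of all genes were called higher and 10.2% lower. The same 4 were higher without overlap, as were 11.1% of all genes. The table as a whole differed between the strains widely (2646 genes higher and 2327 lower in 129S1/SvImJ, and 2861 and 6330 with median-of-ratios scaling). Suclg1 had values of 643, 797, 732 and 773 in 129S1/SvImJ, against 374, 405, 455, 389 and 388 in C57BL/6 (0.87 ± 0.08, adjusted p = 0.000558). Idh3a had 1163, 1416, 1503 and 1503 in 129S1/SvImJ, against 943, 935, 894, 942 and 1059 in C57BL/6 (0.54 ± 0.09, adjusted p = 0.00496). Both genes separated the strains without overlap.

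Ogdh (0.37 ± 0.06, adjusted p = 0.00534) and Mdh2 (0.31 ± 0.07, adjusted p = 0.0172) were also higher without overlap in 12w eWAT. Cs and the other subunits of isocitrate dehydrogenase 3 were not called and lay slightly below 0, with Cs at -0.18 ± 0.11 (2361 ± 363 in 129S1/SvImJ, SD, n = 4, and 2656 ± 183 in C57BL/6, n = 5) and Idh3b at -0.24 ± 0.18. Suclg2 (0.46 ± 0.15, adjusted p = 0.0676) and Fh1 (0.24 ± 0.13, adjusted p = 0.263) missed the threshold, and of the fits with 1 library left out they passed in the one without 129S1/SvImJ library 1, the lowest of its group for 8 members (adjusted p = 0.0193 for Suclg2 and 0.00873 for Fh1). Endothelial markers were lower in 129S1/SvImJ here too, 6 of 6 called, with sums of 1755 to 2467 in 129S1/SvImJ against 4563 to 5117 in C57BL/6. Of the thermogenic markers 2 of 7 were called higher, with sums of 396 to 635 in 129S1/SvImJ against 260 to 321 in C57BL/6. Ucp1 was 22 to 62 in 129S1/SvImJ against 1, the floor, in all 5 C57BL/6 libraries. Cox7a1 (-0.18 ± 0.27), Elovl3 (-0.33 ± 0.48) and Kcnk3 (-0.38 ± 0.17) pointed the other way and were not called. Of 9 adipocyte markers 1 was called higher and 3 lower. The part of these cell types was not tested. The C57BL/6 library with muscle markers was near its group for all 9 members, at a median of 0.973 times the others, and the 4 calls held without it.

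In iWAT no member was called between the strains, where 1.13% of all genes were called higher and 0.56% lower, and none of the 9 had an unadjusted p under 0.05. Suclg1 again had the largest difference, with 515, 837, 767 and 987 in 129S1/SvImJ against 532, 450, 438 and 811 in C57BL/6 (0.48 ± 0.28, interval -0.19 to 1.16). The authors' deposited table gives Suclg1 in iWAT a log2 change of -0.76 for C57BL/6 over 129S1/SvImJ with a p-value of 0.00278. Its changes are negative for all 9 members, which places all of them higher in 129S1/SvImJ. The fit used here differed in direction for Cs (-0.38 ± 0.23), Idh3a (-0.08 ± 0.27) and Mdh2 (-0.22 ± 0.20), which were lower in 129S1/SvImJ and not called. For these the deposited changes of C57BL/6 over 129S1/SvImJ are -0.04, -0.27 and -0.16. Within each strain library 4, the one with Ucp1 above 2000, lay above the median of its group's others for all 9 members, at a median of 1.44 times in 129S1/SvImJ and 1.54 times in C57BL/6. Ogdh, for example, was 4205 in that 129S1/SvImJ library against 2681 to 3040 in the other 3, and 4474 in the C57BL/6 one against 2281 to 2436. Without library 4 of each strain, an alternative added after seeing the data, still no member was called.

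Between the depots, iWAT was set against eWAT within the 12w experiments. The depots come from separately numbered experiments, so depot and experiment cannot be told apart in these contrasts. They stand in separate deposited tables that share their highest value. Whether they were normalized together is not stated, and the part of this in the depot differences was not tested. In C57BL/6 2 of 9 members were called higher in iWAT, where 5.27% of all genes were called higher and 7.81% lower. Without overlap of the libraries 4 members were higher (Cs, Idh3a, Ogdh and Mdh2), as were 6.53% of all genes. The called ones were Idh3a, with 1385, 1324, 1556 and 2056 in iWAT against 894 to 1059 in eWAT (0.71 ± 0.19, adjusted p = 0.024), and Mdh2, with 1240, 1095, 878 and 1193 in iWAT against 729 to 845 in eWAT (0.45 ± 0.14, adjusted p = 0.0491). Without library 4 of both strains Idh3a stayed called (0.57, adjusted p = 0.0192) and Mdh2 did not (0.41, adjusted p = 0.0563). Idh3a lost its call without C57BL/6 eWAT library 3 (adjusted p = 0.0541) or iWAT library 4 (adjusted p = 0.0678), and Mdh2 in 14 of 17 fits with 1 library left out (adjusted p up to 0.121). The coarser values of the C57BL/6 iWAT libraries go with this contrast. Of the thermogenic markers 2 of 7 were called higher in C57BL/6 iWAT, Cidea (3.74 ± 0.70, adjusted p = 0.00344) and Cox8b (1.98 ± 0.58, adjusted p = 0.0386), with sums of 495 to 5883 in iWAT against 260 to 321 in eWAT. All 5 mesothelial markers were called lower, with sums of 5 to 21 in iWAT against 1644 to 2444 in eWAT. Lymphocyte marker sums were 7 to 1712 in iWAT against 64 to 139 in eWAT, with none of 7 genes called. The part of these in the depot differences was not tested.

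In 129S1/SvImJ no member differed between the depots, where 0.525% of all genes were called higher in iWAT and 1.19% lower, and 1 of 9 had an unadjusted p under 0.05. That was Idh3g, with 1063, 1098, 1148 and 1560 in iWAT against 749, 1057, 1005 and 915 in eWAT (0.38 ± 0.17, adjusted p = 0.343), the 1 member without overlap, as were 2.26% of all genes. The strain difference in the depot contrast was called for no member (3.14% of all genes were called), and 2 of 9 had an unadjusted p under 0.05. Idh3a had -0.62 ± 0.27 (adjusted p = 0.272) and Mdh2 -0.52 ± 0.20 (adjusted p = 0.201), and over all genes the 328 higher and 389 lower calls became 411 and 320 with median-of-ratios scaling.

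**Figure D3:**
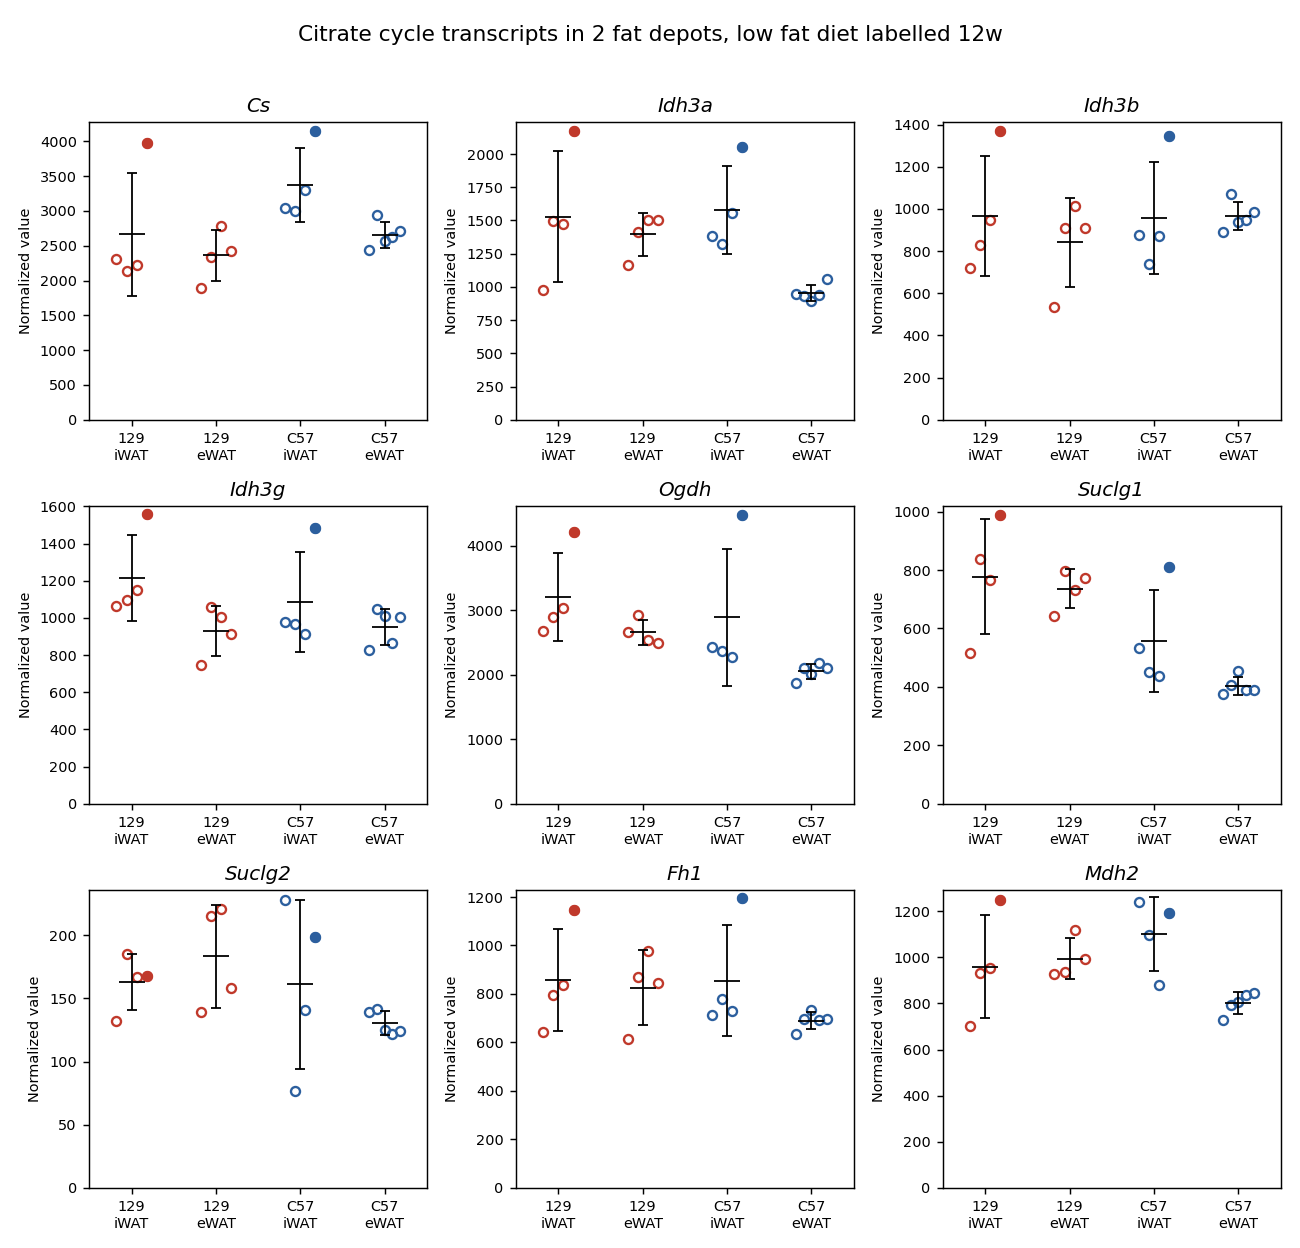
Normalized values of the 9 members in iWAT and eWAT on the low fat diet labelled 12w, with 1 panel per gene and the value axis starting at 0. Circles are libraries (129S1/SvImJ red, C57BL/6 blue), filled circles are iWAT library 4 of each strain, and black bars are the mean and SD; the filled library is the highest of its group for 8 members in 129S1/SvImJ and for 7 in C57BL/6.

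Because libraries such as these shift all members together, ratios between members within a library were also compared. The 4 ratios were chosen with the data in view and tested in 9 comparisons each by a two-sided exact permutation test over libraries, 36 tests in all, of which none had an adjusted p under 0.05. With 4 against 4 libraries the smallest p that this test allows is 0.0286, and the smallest adjusted p of the 36 was 0.0879. The ratio of Suclg1 to Cs separated the strains in all 5 strain comparisons. On chow it was 0.253 to 0.487 in 129S1/SvImJ, library 2 included, against 0.141 to 0.214 in C57BL/6 (1.99-fold, exact p = 0.00794, the smallest that 5 against 5 allows). On rosiglitazone it was 1.97-fold higher in 129S1/SvImJ and on the control diet 1.68-fold higher. In 12w eWAT it was 2.07-fold higher (0.315 ± 0.036 in 129S1/SvImJ, SD, n = 4, and 0.152 ± 0.015 in C57BL/6, n = 5) and in 12w iWAT 1.82-fold higher. The adjusted p was 0.0879 in each of the 5. Rosiglitazone did not separate this ratio in either strain (1.02-fold in 129S1/SvImJ and 0.877-fold in C57BL/6, exact p = 0.914 and 0.229).

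For the ratio of the catalytic subunit Idh3a to Idh3b, the order of the strains was not the same in all experiments. On rosiglitazone the ratio was 1.24 in 129S1/SvImJ and 2.04 in C57BL/6, without overlap. In 12w eWAT it was 1.72 in 129S1/SvImJ and 0.991 in C57BL/6, again without overlap. In C57BL/6 it was 1.67 in iWAT and 0.991 in eWAT, while in 129S1/SvImJ iWAT and eWAT, at 1.58 and 1.72, overlapped. On the control diet the strains overlapped at 1.47 in 129S1/SvImJ and 1.43 in C57BL/6. The chow, drug and 12w experiments stand in separate tables, and no test was made between them. Idh3g over Idh3b, the non-catalytic pair, stayed closer to 1, with group means between 0.916 and 1.29.

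**Figure D4:**
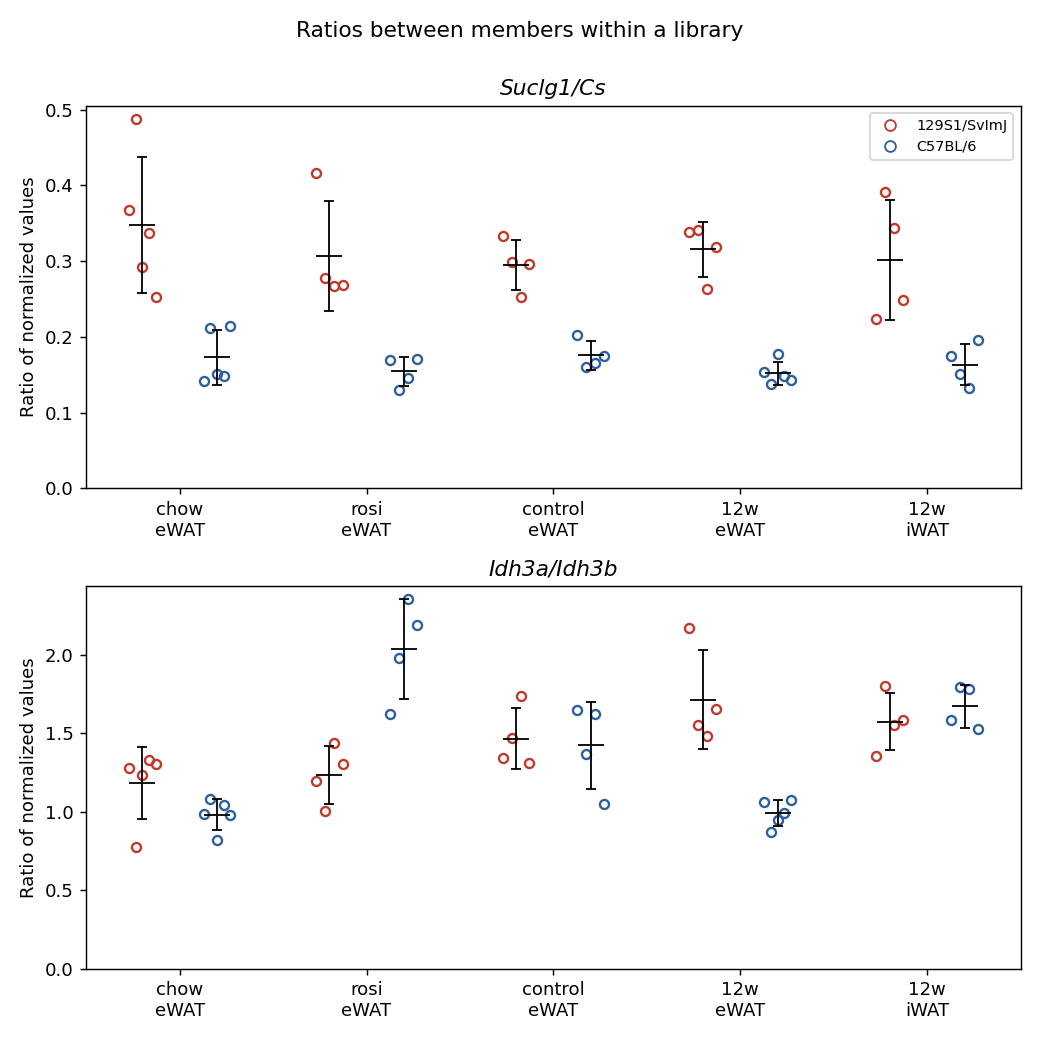
Ratio of Suclg1 to Cs (top) and of Idh3a to Idh3b (bottom) in each library, by experiment, with the ratio axis starting at 0. Circles are libraries (129S1/SvImJ red, left of C57BL/6 in blue), and black bars are the mean and SD; the Suclg1 to Cs ratio of the strains does not overlap in any of the 5 pairs, and the order of the Idh3a to Idh3b ratio turns between the rosi and 12w eWAT pairs.

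The members varied together over the 43 libraries. Values were centred within tables and not within groups, so the strain and drug differences take part in this description. Library quality and shared normalization take part too. Each member's Pearson correlation with the mean of the other 8, after centring within tables, was highest for Fh1 (0.945) and Idh3g (0.935) and lowest for Suclg1 (0.743) and Suclg2 (0.751). Of 9851 genes ranked by their likeness to the mean of the 9, the closest were Uqcrfs1 (r = 0.966), the Rieske subunit of respiratory complex III, Ndufa9 (0.956), a complex I subunit, Acadvl (0.941), which opens the oxidation of very long chain fatty acids, and Immt (0.940), which organizes mitochondrial cristae. Ndufs1, Cox6a1, Etfdh and Ndufv1 followed, with r of 0.932 to 0.925.

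**Figure D5:**
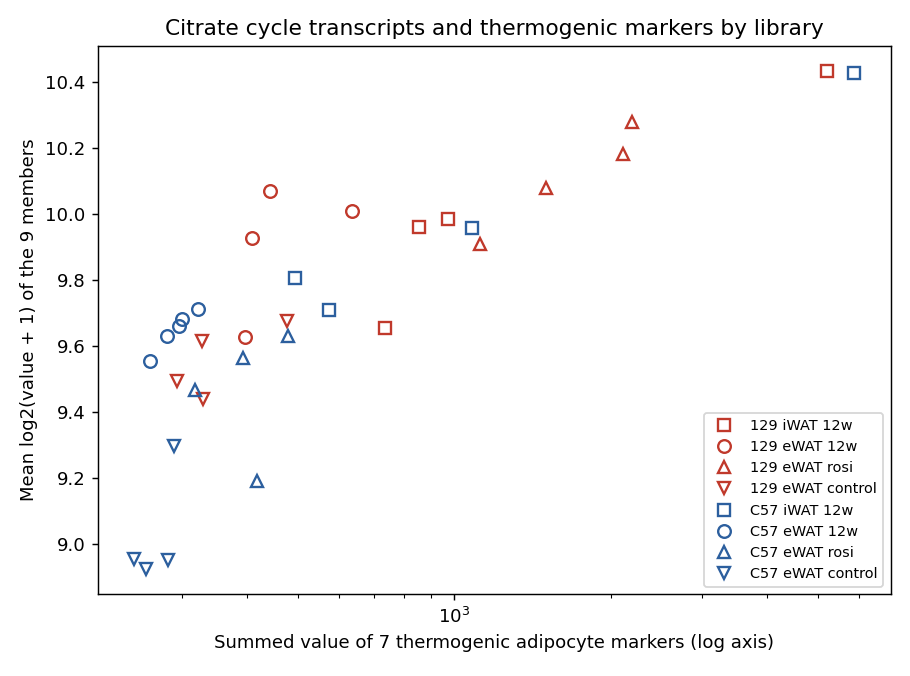
Mean log2(value + 1) of the 9 members against the summed value of 7 thermogenic adipocyte markers (log axis), 1 symbol per library of the drug and 12w experiments. Values are not centred by table, and the drug and 12w tables differ in their highest value. Positions of drug and 12w libraries can therefore not be set against each other, and chow libraries are not drawn. Squares are 12w iWAT, circles 12w eWAT, upward triangles rosiglitazone eWAT and downward triangles control eWAT (129S1/SvImJ red, C57BL/6 blue). Among the 12w libraries, library 4 of both iWAT groups, with sums of 5216 and 5883, is highest on both axes. Among the drug experiment libraries, the treated 129S1/SvImJ ones, with 1123 to 2196, are.

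The counts of the pathway lists stand beside these shares of all genes. With rosiglitazone 2.96% of all genes rose in 129S1/SvImJ and 1.53% in C57BL/6. In 129S1/SvImJ against C57BL/6, 10.0% were higher and 7.5% lower on the control diet, 5.45% and 5.23% on rosiglitazone, 11.6% and 10.2% in 12w eWAT, and 2.39% and 2.61% on chow. In C57BL/6 iWAT against eWAT 5.27% were higher and 7.81% lower.

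Of the other enzymes of the cycle, 6 of 9 rose with rosiglitazone in 129S1/SvImJ and 3 of 9 in C57BL/6, and none fell in either. In 129S1/SvImJ these included Dlst, the middle component of the 2-oxoglutarate dehydrogenase complex (0.60 ± 0.10, adjusted p = 0.000488), and Sucla2, the ATP-specific partner of Suclg1 (0.64 ± 0.12, adjusted p = 0.00164). In C57BL/6 they included Dld, the component shared by the 2-oxo acid dehydrogenases (0.48 ± 0.11, adjusted p = 0.0279), and Sucla2 (0.48 ± 0.12, adjusted p = 0.033). Between the strains 8 of 9 were higher in 129S1/SvImJ on rosiglitazone, among them Idh2 (0.90 ± 0.13) and Dlst (0.59 ± 0.10), and 6 of 9 on the control diet, led by the succinate dehydrogenase subunits Sdhc (0.48 ± 0.09) and Sdhb (0.73 ± 0.15). In 12w eWAT none was called higher and 1 was called lower. In C57BL/6 iWAT against eWAT, Sucla2 (0.76 ± 0.22) and Sdha (0.61 ± 0.19) were higher.

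The pyruvate dehydrogenase complex, which feeds acetyl-CoA to Cs, rose in part. With rosiglitazone 2 of 4 genes rose in each strain, Dlat (0.67 ± 0.14 in 129S1/SvImJ and 0.60 ± 0.14 in C57BL/6) and Pdhx (0.46 ± 0.11 and 0.54 ± 0.11). On the control diet 3 of 4 were higher in 129S1/SvImJ than in C57BL/6, among them Pdha1 (0.55 ± 0.12), while in 12w eWAT Pdhb was lower (-1.06 ± 0.20, adjusted p = 0.00964). Of 16 genes of the respiratory chain and other mitochondrial components, 8 rose with rosiglitazone in 129S1/SvImJ and 4 in C57BL/6, with Cox4i1 in both (0.69 ± 0.11 and 0.44 ± 0.11). Between the strains, 13 of the 16 were higher in 129S1/SvImJ on rosiglitazone and 10 on the control diet. In 12w eWAT 3 were higher and 1 lower, and on chow 2 were higher, Vdac2 (0.70 ± 0.12) and Cox4i1 (0.31 ± 0.07).

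Of 17 genes that exchange metabolites with the cycle, 1 rose with rosiglitazone in 129S1/SvImJ and 3 in C57BL/6. The 129S1/SvImJ gene was Pck2 (0.54 ± 0.12), and those in C57BL/6 were Slc25a10, the dicarboxylate carrier (0.84 ± 0.16), Slc25a1, the citrate exporter (0.99 ± 0.19), and Me1, cytosolic malic enzyme (1.34 ± 0.26). Between the strains 8 were higher in 129S1/SvImJ and none lower on the control diet, and 4 were higher and 1, Me1, lower on rosiglitazone (-1.02 ± 0.26). Slc25a10 was higher in 129S1/SvImJ on the control diet (1.43 ± 0.16) and lower in 12w eWAT (-1.12 ± 0.16). In 12w eWAT 4 were higher in 129S1/SvImJ and 6 lower, the higher ones led by Pck1 (1.08 ± 0.10) and the lower ones by Pcx, pyruvate carboxylase (-1.32 ± 0.13), and Acly, which splits exported citrate (-2.71 ± 0.39). Among 7 regulators of mitochondrial genes, Ppara rose with rosiglitazone in 129S1/SvImJ (1.46 ± 0.19, adjusted p = 3.9e-05), Ppargc1b rose in both strains (0.86 ± 0.24 in 129S1/SvImJ and 0.99 ± 0.24 in C57BL/6), and Pparg, which encodes the drug's receptor, fell in 129S1/SvImJ (-0.49 ± 0.10, adjusted p = 0.00408). In 12w eWAT 3 of the 7 were higher in 129S1/SvImJ, Ppargc1a (1.10 ± 0.15), Ppara (0.92 ± 0.15) and Gabpa (0.33 ± 0.08). Lower there were 2, Nrf1 and Esrra (-0.60 ± 0.15 and -0.74 ± 0.19). In C57BL/6 iWAT against eWAT 2 were higher, Ppargc1a (1.97 ± 0.29) and Gabpa (0.45 ± 0.11). The strain difference in the depot contrast was called for Ppargc1a (-1.94 ± 0.42, adjusted p = 0.0271).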

How the data were processed

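RNA from white adipose tissue was extracted with Trizol and RNeasy columns, made into Illumina TruSeq libraries and sequenced on a Genome Analyzer, per the labels' protocols. Per the submitters' processing notes, the tools included HOMER and the genome build was mm9. The sources used here do not give the counting options, the normalization or the program behind the authors' p-values. The values are normalized scores that the authors deposited as whole numbers with a floor of 1. The authors' deposited tables also hold log2 fold changes and p-values.

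Columns were mapped to samples by name, with no value column left unmapped. The 8 control diet libraries stand in both drug experiment tables with identical values and were used once. Scores were transformed to log2(value + 1), and 11 comparisons in 5 fits were tested with limma 3.58.1 in R 4.3.3 (trend and robust options) over 22869 symbols, with Benjamini-Hochberg adjustment and a threshold of 0.05. Fold changes are on the log2(value + 1) scale and understate changes of low genes. The fitting code was tested on simulated data. The members, the pathway and marker lists and the ratios were chosen with earlier results of these data known. All 9 members are named, and of each pathway list up to 3 called genes per direction, by smallest p. The values of 1 gene that this rule names are not reported here, though the counts of its list include it. Alternatives were another pseudocount, a filter on low values, median-of-ratios scaling, summed transcript rows, a replicate block and leaving out libraries.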

Additional observations from a re-analysis of the deposited data

Results flagged for a closer look

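Of 90 sets of values (9 members in 10 groups), 6 held 1 library apart from the rest of its group by Dixon's criterion at the 95% level, where chance gives about 1 in 20. The number of flags is near that rate, so a single flag cannot be told from chance. In iWAT, library 4 of 129S1/SvImJ stood apart for Cs, at 3980. Library 4 of C57BL/6 stood apart for Idh3g (1485), Ogdh (4474) and Fh1 (1198). These are the libraries with Ucp1 at 2392 and 2108, and the part of thermogenic cells in the values was not tested. In control diet eWAT, 129S1/SvImJ library 3 stood apart for Fh1, at 830, and C57BL/6 library 1 for Idh3a, at 738, where the other 3 libraries lay between 694 and 699.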

How the results depend on the processing

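The number of members called was 1 instead of 2 for C57BL/6 iWAT against eWAT with a pseudocount of 8, with the replicate block, or without iWAT library 4 of both strains (added after seeing the data). On chow it was 1 instead of 0 with values of at least 10 required or median-of-ratios scaling, and 4 without 129S1/SvImJ libraries 1 and 2. In 12w eWAT it was 1 instead of 4 with the block. With 1 library left out, the counts were 0 to 1 on chow, 4 to 8 between strains on the control diet, 5 to 8 between strains on rosiglitazone, 3 to 5 for rosiglitazone in C57BL/6, 5 to 7 in 129S1/SvImJ, 4 to 6 in 12w eWAT and 0 to 2 between C57BL/6 depots. Shares of all genes called in those fits are not set beside these counts. The counts therefore do not show whether members gained or lost calls more than other genes. Replicate numbers were not used as pairs in the main fits. In none of 9 sets of same-numbered pairs did every pair correlate over 0.1. Single pairs did, such as iWAT library 4 of both strains (0.53), so this check cannot exclude a pairing. With 129S1/SvImJ libraries 1 and 2 of chow left out, Cs (0.15) and Idh3b (0.24) changed sign. Ogdh on the control diet did so with median-of-ratios scaling (-0.015), as did Cs (-0.073), Fh1 (-0.11), Idh3a (-0.11) and Suclg1 (-0.086) between 129S1/SvImJ depots without both iWAT libraries 4. All of these were uncalled, and the cause was not tested. Leaving out 1 library turned the sign of 23 uncalled member results. The lowest and highest log2 fold changes over those fits were, on chow, -0.40 and 0.011 for Cs, -0.20 and 0.12 for Idh3b, -0.042 and 0.15 for Ogdh, and -0.046 and 0.41 for Suclg2. They were -0.023 and 0.058 for Ogdh on the control diet, -0.063 and 0.22 for Suclg2 with rosiglitazone in C57BL/6, and -0.099 and 0.066 for Idh3g in 12w eWAT. In the drug interaction they were -0.18 and 0.0095 for Cs, -0.089 and 0.16 for Fh1, and -0.077 and 0.12 for Mdh2. In 12w iWAT they were -0.27 and 0.12 for Idh3a, -0.17 and 0.18 for Idh3b, -0.20 and 0.32 for Suclg2, and -0.15 and 0.18 for Fh1. Between depots they were -0.22 and 0.065 for Idh3b and -0.0086 and 0.51 for Suclg2 in C57BL/6, and in 129S1/SvImJ -0.073 and 0.23 for Cs, -0.11 and 0.28 for Idh3a, -0.0080 and 0.32 for Idh3b, -0.086 and 0.23 for Suclg1, -0.11 and 0.17 for Fh1, and -0.21 and 0.065 for Mdh2. For Ogdh in the depot interaction they were -0.32 and 0.049. Of 30 called member results, 21 kept their call in every fit with 1 library left out. Over all genes, calls in 12w iWAT went to 220 (pseudocount 8), 164 (summed rows), 249 (values of at least 10), 30 (block) and 102 (without both libraries 4), against 387, those on chow to 252 (block) and 2597 (without libraries 1 and 2), against 1142, and those in 12w eWAT to 9191 (scaling) and 1277 (block), against 4973. With the block the depot interaction had 220 calls, against 717, and 129S1/SvImJ depots 256, against 393, and with summed rows the drug interaction had 31, against 48. Depth is unknown, so its effect on low genes such as Suclg2 could not be assessed.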
